A study of Rattus norvegicus with 16 samples.

Results

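Nqo1, Ephx1, Ephx2, Cbr1, Cbr3, Blvra, Blvrb, Aox1, Osgin1 and Ugdh are 10 rat genes of phase I and phase II metabolism that are commonly linked to the transcription factor Nrf2. They were chosen by gene symbol, and the counts of the authors held 1 row for each of them among 32623 rows in all. All 10 passed the filter on low counts in every comparison given here. The label of an enzyme holds for most of them, whereas Osgin1 is better known as a growth inhibitor induced by oxidative stress.

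Nrf2, encoded by Nfe2l2, is held by Keap1 in the cytosol and degraded until electrophiles or oxidants modify Keap1. Freed Nrf2 enters the nucleus, pairs with a small Maf protein and binds antioxidant response elements near genes of quinone reduction, glutathione synthesis, NADPH supply and conjugation. In the kidney the proximal tubule is the main site of such detoxification, because it takes up and secretes drugs and metabolites.

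RNA came from 16 libraries of 2 rat kidney cell lines kept in co-culture, with 4 libraries for each cell line and medium pH. NRK-52E is an epithelial line, grown here on permeable filter inserts, and NRK-49F is a fibroblast line, grown on the well below, so both lines shared 1 medium. All cells first spent 24 h in medium without fetal calf serum and were then incubated for 48 h at pH 7.4 (control) or pH 6.0 (acidosis). The sample labels shorten these values to pH7 and pH6. The groups were NRK-52E at pH 7.4 (libraries N1, N2, N5 and N6), NRK-52E at pH 6.0 (N3, N4, N7 and N8), NRK-49F at pH 7.4 (N9, N10, N13 and N14) and NRK-49F at pH 6.0 (N11, N12, N15 and N16), and values per library are given in that order. Each line is an established culture, so the libraries of a group stand for 1 line and not for separate animals, and no monoculture was analysed here. Nothing in the labels says that the 4 libraries of a group came from separate experiments, so p-values measure the spread between these libraries, which may be partly technical.

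Library totals lay between 16201084 and 34784862 counted fragments, with group medians of 19132388 in NRK-52E at pH 7.4, 21199012 in NRK-52E at pH 6.0, 20316554 in NRK-49F at pH 7.4 and 29093537 in NRK-49F at pH 6.0. Levels are FPM, the CPM unit applied to fragments, that is, a gene's count relative to the TMM-adjusted total of its library, and group values are mean ± SD (n = 4). They compare groups for 1 gene and not genes with each other, since no lengths were used. A gene was called changed with pH when the false discovery rate (FDR) was under 0.01 in both edgeR and DESeq2, in the 8 libraries of that line. Log2 fold changes are given with the standard error (SE) of edgeR, and adjusted p-values are those of edgeR unless DESeq2 is named. In each exact permutation test of 4 against 4 libraries the smallest possible two-sided p was 0.0286.

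The labelled cell types were first set against their markers. Of 10 epithelial markers, Epcam, Krt18, Cldn1, Cldn4 and Cdh16 stood at or near 0 in NRK-52E cells, and Cdh1 reached 1.62 ± 0.221 FPM at pH 7.4. Cldn1 was at 0.0205 ± 0.0410 FPM in NRK-52E cells and at 0.955 ± 0.361 FPM in NRK-49F cells at pH 7.4. Ocln was at 41.2 ± 2.04 FPM in NRK-52E cells and at 0 in NRK-49F cells at that pH. The summed epithelial markers ranged from 827 to 869 FPM in NRK-52E at pH 7.4, from 773 to 986 in NRK-52E at pH 6.0, from 927 to 1061 in NRK-49F at pH 7.4 and from 316 to 352 in NRK-49F at pH 6.0. Most of the sum in NRK-49F was Krt8, which fell from 848 ± 70.4 to 206 ± 9.43 FPM with acidosis. Among 8 proximal tubule markers, NRK-52E cells at pH 7.4 held 0.634 ± 0.293 FPM of Lrp2 and 0 of Slc34a1 and Slc22a6, beside 34.4 ± 7.64 of Aqp1 and 28.5 ± 1.10 of Anpep. The proximal tubule sum was higher in NRK-49F (142 to 195 FPM at pH 7.4, 364 to 560.4 at pH 6.0) than in NRK-52E (56.3 to 74.9 and 25.9 to 36.9), and most of it in NRK-49F was Ggt1. Among 10 fibroblast markers, Pdgfra was at 392 ± 54.7 FPM in NRK-49F and 0.286 ± 0.110 in NRK-52E at pH 7.4, and Col1a1 was at 6205 ± 409.7 and 23.6 ± 3.84. Col3a1 ran the other way, with 6221 ± 95.0 FPM in NRK-52E and 458 ± 103 in NRK-49F. Thy1 was at 0 in both lines. An exact 0 in these counts need not mean that a transcript was absent, because the widely expressed ferritin gene Fth1 was also at 0 in all 16 libraries.

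Markers also moved with acidosis. In NRK-52E 4 of 5 epithelial markers tested were called lower (28.5% of all genes), with log2 changes of -2.11 for Ocln, -2.31 for Cdh1, -1.63 for Krt19 and -0.47 for Krt8, while Tjp1 rose from 371 ± 29.7 to 579 ± 96.8 FPM. Anpep fell in NRK-52E to 1.25 ± 0.324 FPM and in NRK-49F from 30.1 ± 6.20 to 10.9 ± 3.84, and the very low Slc5a2 fell in both lines. Of 5 proximal tubule markers tested, these 2 were thus called lower in NRK-52E (28.5% of all genes). Among the others there, Slc22a6, too low for the test, went from 0 to 1.47 ± 0.894 FPM and Cubn from 0.804 ± 0.114 to 1.0 ± 0.422. Lrp2, also too low for the test, went from 0.634 ± 0.293 to 0.0118 ± 0.0235 FPM. Aqp1 went from 34.4 ± 7.64 to 26.4 ± 3.95 FPM and Ggt1 from 1.53 ± 0.241 to 1.41 ± 0.764, neither of them called. Ggt1 rose in NRK-49F from 112 ± 19.8 to 413 ± 84.8 FPM, and Aqp1, from 21.8 ± 3.88 to 41.6 ± 20.4, missed the threshold (adjusted p = 0.0128). Of 5 proximal tubule markers tested there, 1 was called higher and 2 lower, beside 18.4% and 19.4% of all genes. Of 4 epithelial markers tested in NRK-49F, 2 were called lower (19.4% of all genes), namely Krt8 and Cldn1, which went from 0.955 ± 0.361 FPM to 0. The fibroblast sum in NRK-52E ranged from 6542 to 6811 FPM at pH 7.4 and from 2022 to 3423 at pH 6.0, with 5 of 6 markers tested called lower (28.5% of all genes). In NRK-49F it ranged from 9463 to 10149 and from 8728 to 10267, with 4 of 7 called lower (19.4% of all genes), among them S100a4 (2252 ± 367 to 628 ± 160.0 FPM), Col3a1 (to 53.9 ± 25.8) and Pdgfrb (87.2 ± 3.95 to 21.8 ± 8.66). Col1a1, most of that sum, went from 6205 ± 409.7 to 8288 ± 922 FPM without overlap (log2 0.40), with an adjusted p of 0.0103 in edgeR and 0.000582 in DESeq2. Of the leukocyte markers Ptprc and Adgre1 were at 0 in all 16 libraries, Cd68 rose in NRK-49F from 81.2 ± 16.4 to 243 ± 20.2 FPM, and Lyz2 rose in NRK-52E from 0.690 ± 0.192 to 3.29 ± 0.850 FPM. Of the endothelial markers Kdr was at 0 in all 16 libraries, and Tek fell in NRK-52E from 41.1 ± 4.14 to 7.02 ± 0.971 FPM. The part of these marker shifts in the results for the 10 genes was not tested.

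In NRK-52E cells 6 of the 10 genes were higher at pH 6.0 (Nqo1, Ephx1, Cbr3, Blvra, Blvrb and Osgin1), where 28.2% of 13735 genes tested were called higher. The 3 called lower were Ephx2, Aox1 and Ugdh, against 28.5% of all genes. The median log2 fold change of all 10 was 1.02, and that of all genes tested was 0.0014. In NRK-49F cells 3 of the 10 were called higher (Nqo1, Osgin1 and Ugdh) beside 18.4% of 13339 genes tested, and 1 was called lower (Ephx1) beside 19.4%. There the median of the 10 was -0.025, and that of all genes was -0.0029. Nqo1 and Osgin1 were called higher in both lines. Because whole cultures were measured, fewer cells with a transcript and less of that transcript per cell cannot be told apart.

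**Figure D1:**
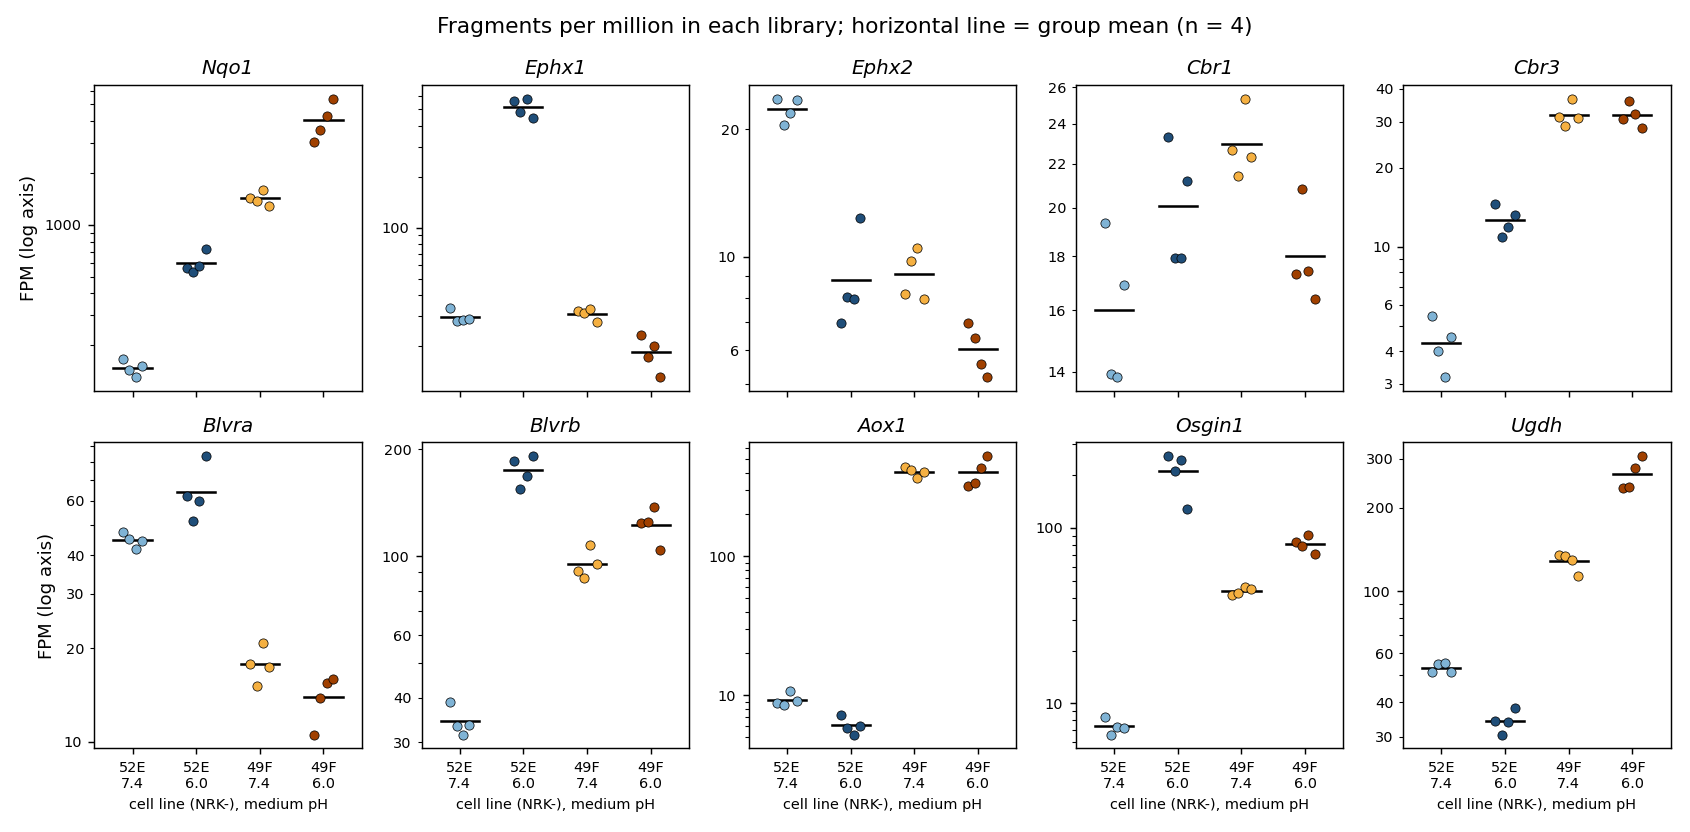
Levels of the 10 genes in each of the 16 libraries, in FPM on a logarithmic axis whose range differs between panels. Points are libraries, horizontal lines are the means of 4 libraries, and the groups are NRK-52E (blue) and NRK-49F (orange and brown) at pH 7.4 and 6.0; for Ephx1 only NRK-52E at pH 6.0 lies above 34 FPM.

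**Figure D2:**
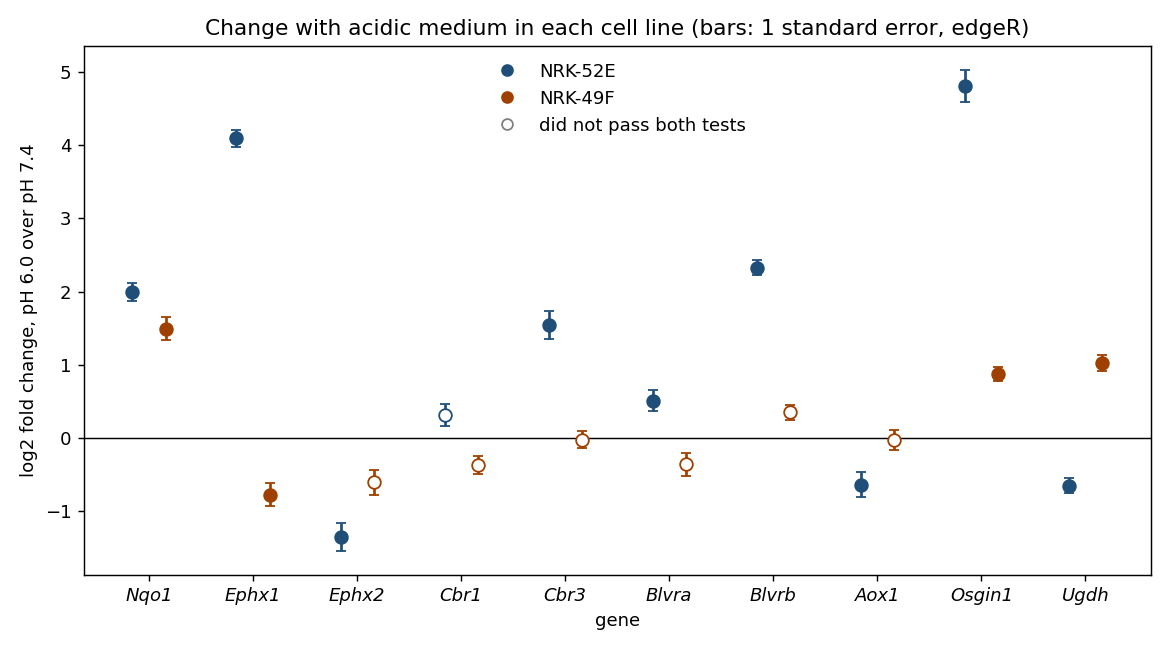
Log2 fold change of each gene at pH 6.0 over pH 7.4 in NRK-52E (blue) and NRK-49F (brown), with bars of 1 SE from edgeR. Open circles did not pass both tests; Ephx1 and Ugdh are filled on opposite sides of the zero line in the 2 cell lines.

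Nqo1 (ENSRNOG00000012772, chromosome 19 of rn6) encodes NAD(P)H quinone dehydrogenase, which reduces quinones by a pair of electrons and is a standard readout of Nrf2. In NRK-52E cells it stood at 167, 145, 131 and 152 FPM at pH 7.4 and at 566, 534, 581 and 724 FPM at pH 6.0. In NRK-49F cells it stood at 1441, 1384, 1584 and 1292 FPM at pH 7.4 and at 3045, 3560.4, 4269 and 5394 FPM at pH 6.0. Each library at pH 6.0 was above each library at pH 7.4 in both lines, and the highest value of the NRK-49F acidosis group was N16. The ratio of means was 4.05 in NRK-52E (log2 fold change 2.0, SE 0.12, adjusted p = 3.45e-07) and 2.85 in NRK-49F (1.49, SE 0.16, adjusted p = 1.24e-05). The order of the groups was complete, from 149 ± 14.7 FPM in NRK-52E at pH 7.4 through 601 ± 84.0 and 1425 ± 123 to 4067 ± 1017 in NRK-49F at pH 6.0, with no overlap between neighbours. The 2 pH effects on Nqo1 differed by 0.49 on the log2 scale (SE 0.21, adjusted p = 0.0603), which missed the threshold. Without library N16 that difference was 0.65 and passed the threshold, whereas it was 0.25 with library totals and down to 0.37 (without N11) with each library left out.

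The column headers carry a second number, 21 or 22 in NRK-52E and 20 or 21 in NRK-49F, with 2 libraries of each pH under each number. Its meaning is not given in the sources used here. Within these numbers the log2 fold change of Nqo1 was 1.78 and 2.19 in NRK-52E and 1.23 and 1.73 in NRK-49F. For the rest of the 10 genes such values are given below where a call or a direction depended on the number.

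Osgin1 (ENSRNOG00000014948, chromosome 19) had the largest fold change of the 10 in NRK-52E. Its levels in NRK-52E were 8.39, 6.64, 7.30 and 7.24 FPM at pH 7.4 and 256, 212, 245 and 128 FPM at pH 6.0. In NRK-49F they were 41.7, 42.3, 45.8 and 44.6 FPM at pH 7.4 and 83.7, 78.7, 90.9 and 70.9 FPM at pH 6.0. No library at pH 7.4 reached a library at pH 6.0 of its line, and N8 was the lowest of the NRK-52E acidosis group. The ratio of means was 28.4 in NRK-52E (4.81 on the log2 scale, SE 0.22, adjusted p = 6.97e-08) and 1.86 in NRK-49F (0.88, SE 0.097, adjusted p = 1.51e-05). The difference between these pH effects was 3.92 (SE 0.23, adjusted p = 8.7e-10). With it the order of the lines turned round, from 7.39 FPM in NRK-52E against 43.6 in NRK-49F at pH 7.4 to 210.2 against 81.1 at pH 6.0. Both line differences passed the test, at -2.56 (adjusted p = 1.55e-10) and 1.36 (adjusted p = 2.7e-07).

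Ephx1 and Ephx2 are epoxide hydrolase genes, with called effects in opposite directions in NRK-52E and both values lower with acidosis in NRK-49F. Ephx1 (ENSRNOG00000003515, chromosome 13) encodes the microsomal enzyme, which opens epoxides of xenobiotics to diols. In NRK-52E cells Ephx1 stood at 33.7, 28.2, 28.4 and 28.8 FPM at pH 7.4 and at 559, 484, 577 and 446 FPM at pH 6.0. In NRK-49F cells the libraries gave 32.1, 31.3, 32.9 and 27.7 FPM at pH 7.4 and 23.0, 17.2, 19.9 and 13.1 FPM at pH 6.0. All 4 NRK-52E acidosis libraries were far above the other 12, and the 4 NRK-49F acidosis libraries were the lowest of the 16. Ephx1 rose 17.3-fold in NRK-52E (log2 4.10, SE 0.12, adjusted p = 1.43e-08) and fell by 0.77 on the log2 scale in NRK-49F (SE 0.16, adjusted p = 0.00147). The 2 effects differed by 4.86 (SE 0.20, adjusted p = 3.18e-11). At pH 7.4 the lines overlapped, at 29.8 ± 2.61 FPM (NRK-52E) and 31.0 ± 2.30 FPM (NRK-49F). The log2 difference was -0.057 (SE 0.14, adjusted p = 0.718), whose sign changed with the scaling. At pH 6.0 NRK-52E was 28.2 times NRK-49F. The fall in NRK-49F was -0.64 within header number 20 and -0.89 within 21, where the call was lost with 2 libraries a side.

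Ephx2 (ENSRNOG00000017286, chromosome 15) encodes the soluble enzyme, which hydrolyses epoxides of fatty acids. In NRK-52E it read 23.6, 20.5, 21.8 and 23.5 FPM at pH 7.4 and 6.97, 8.0, 7.95 and 12.4 FPM at pH 6.0. In NRK-49F it read 8.17, 9.75, 10.47 and 7.95 FPM at pH 7.4 and 6.95, 6.43, 5.56 and 5.19 FPM at pH 6.0. The acidosis libraries lay below the control libraries in both lines, and N8 was the highest NRK-52E library at pH 6.0. Ephx2 fell by 1.35 on the log2 scale in NRK-52E (SE 0.19, adjusted p = 7.85e-05), and within header number 22 alone the change of -1.17 lost its call. In NRK-49F the change was -0.61 (SE 0.17), which missed the threshold in edgeR (adjusted p = 0.0111) and passed it in DESeq2 (adjusted p = 0.00316). The difference between the lines in this effect, -0.76 (SE 0.25), also missed it (adjusted p = 0.0149). That difference passed in 4 of 22 alternatives, namely without N8 (-0.97), with library totals, with DESeq2 and at an FDR below 0.05. In order of level, NRK-52E at pH 7.4 (22.4 ± 1.50 FPM) stood above NRK-49F at pH 7.4 (9.09 ± 1.22), NRK-52E at pH 6.0 (8.82 ± 2.41) and NRK-49F at pH 6.0 (6.03 ± 0.804), and the NRK-49F control and NRK-52E acidosis groups overlapped. Of the listed sources of fatty acid epoxides, Cyp2j4 and Cyp4a8 had too few counts for a test. Pla2g4a, the phospholipase that frees arachidonic acid, fell from 17.8 ± 2.0 to 3.16 ± 1.14 FPM in NRK-52E (log2 -2.51, adjusted p = 5.51e-06), whereas it did not pass the test in NRK-49F (128 and 88.0 FPM).

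The carbonyl reductases Cbr1 and Cbr3 reduce aldehydes, ketones and quinones with NADPH. They are paralogs, and both lie on chromosome 11 (ENSRNOG00000047848 and ENSRNOG00000001701). Because fragments that map to more than 1 place were counted, any that map to both would count for each, and their values are less certain for that reason. How many such fragments there were was not measured. In NRK-52E Cbr3 stood at 5.43, 4.01, 3.19 and 4.522 FPM at pH 7.4 and at 14.6, 10.9, 11.9 and 13.3 FPM at pH 6.0. In NRK-49F the Cbr3 libraries gave 31.3, 28.9, 36.7 and 30.9 FPM at pH 7.4 and 30.7, 35.9, 31.9 and 28.4 FPM at pH 6.0. The NRK-52E groups were apart, and the NRK-49F groups covered the same range. Cbr3 rose 2.95-fold in NRK-52E (log2 1.54, SE 0.19, adjusted p = 3.98e-05), and in NRK-49F the log2 change was -0.023 (SE 0.12, adjusted p = 0.878), with 0.15 and -0.18 within header numbers 20 and 21. The effects differed by 1.55 (SE 0.21, adjusted p = 1.07e-05). Even after its rise NRK-52E remained below NRK-49F at pH 6.0, with means of 12.6 and 31.8 FPM and a log2 difference of -1.35 (adjusted p = 1.45e-07).

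Cbr1 was called in neither line. In NRK-52E it stood at 19.3, 13.9, 13.8 and 16.9 FPM at pH 7.4 and at 23.3, 17.9, 17.9 and 21.2 FPM at pH 6.0. In NRK-49F its libraries read 22.7, 21.4, 25.3 and 22.3 FPM at pH 7.4 and 17.3, 20.8, 17.4 and 16.4 FPM at pH 6.0. The NRK-52E groups overlapped, and the NRK-49F groups did not, with N12 nearest to the control libraries. The log2 change was 0.31 in NRK-52E (SE 0.16, adjusted p = 0.0956, exact permutation p = 0.114) and -0.37 in NRK-49F (SE 0.12, adjusted p = 0.0228, exact permutation p = 0.0286). Under alternatives other than leaving out a library, these changes ranged from 0.099 to 0.33 and from -0.51 to -0.21. The difference between the pH effects was 0.66 (SE 0.19, adjusted p = 0.00844), just inside the threshold. It was lost in 14 of 22 alternatives, namely with library totals (0.42), with no filter on low counts (0.68) and without any 1 of N2, N3, N5, N6, N8, N9, N10, N11, N13, N14, N15 and N16, where it ranged from 0.47 without N3 to 0.69 without N10. In order, the group means were 23.0, 20.1, 18.0 and 16 FPM for NRK-49F at pH 7.4, NRK-52E at pH 6.0, NRK-49F at pH 6.0 and NRK-52E at pH 7.4, and neighbours overlapped throughout. Of 3 other carbonyl and quinone reductases tested in NRK-52E 2 were called higher and 1 lower, and of 2 tested in NRK-49F 1 was called higher (medians 0.90 and 0.11), beside 28.2% higher and 28.5% lower of all genes in NRK-52E and 18.4% higher in NRK-49F. The aldose reductase gene Akr1b1 rose in both lines, by 0.90 on the log2 scale in NRK-52E (adjusted p = 2.84e-05) and by 0.67 in NRK-49F (adjusted p = 0.000284). Cbr4, a mitochondrial carbonyl reductase, fell by 1.06 in NRK-52E on that scale and did not pass in NRK-49F (-0.45, adjusted p = 0.0230, with a difference -0.62 between the effects, adjusted p = 0.0353). The very low Dcxr rose in NRK-52E from 0.236 to 1.04 FPM (log2 2.03), a call lost in 5 of 16 alternatives, namely within header numbers 21 (2.42) and 22 (1.519) and without N1 (1.85), N3 (1.67) or N6 (1.85). Nqo2, the paralog of Nqo1, was below 1 FPM in each group mean and was not tested.

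Biliverdin reductases finish heme breakdown by turning biliverdin into bilirubin. Blvrb (ENSRNOG00000024410, chromosome 1), also a flavin reductase, had 39.0, 33.3, 31.5 and 33.7 FPM in NRK-52E at pH 7.4 and 185, 155, 168 and 191 FPM at pH 6.0. In NRK-49F it had 90.8, 87.0, 107 and 95.1 FPM at pH 7.4 and 124, 125, 137 and 104 FPM at pH 6.0. The NRK-52E groups were well apart, while in NRK-49F the acidosis library N16 fell below the control library N13. Blvrb rose 5.08-fold in NRK-52E (log2 2.33, SE 0.11, adjusted p = 7.25e-08). In NRK-49F the log2 change of 0.35 (SE 0.11) missed the threshold in edgeR (adjusted p = 0.0142) and passed in DESeq2 (adjusted p = 0.00640). Both tests were passed without N13 (0.42), without N16 (0.43), with library totals (0.40) and within header number 20 (0.49; 0.23 within 21, not called). The effects differed by 1.96 (SE 0.15, adjusted p = 1.52e-08). The line order turned round here too, from 34.4 FPM in NRK-52E and 95.1 in NRK-49F at pH 7.4 to 175 and 123 at pH 6.0, and both differences passed the test (-1.47 and 0.49).

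Blvra (ENSRNOG00000011778, chromosome 3) encodes the form that acts on the main isomer of biliverdin. In NRK-52E it gave 47.4, 44.9, 42.0 and 44.6 FPM at pH 7.4 and 62.1, 51.5, 59.8 and 83.4 FPM at pH 6.0. In NRK-49F it gave 17.8, 15.1, 20.9 and 17.4 FPM at pH 7.4 and 10.54, 13.9, 15.50 and 16 FPM at pH 6.0. The NRK-52E groups did not overlap, although N4 was near the control libraries and N8 well above the rest, and the NRK-49F groups overlapped. The log2 change of 0.51 in NRK-52E (SE 0.14, adjusted p = 0.00939) was just inside the threshold. That call was lost in 10 of 19 alternatives, among them scaling by library totals (0.29), header number 21 alone (0.26), header number 22 alone (0.71) and the removal of any 1 of N1, N2, N3, N5, N6 and N7 (from 0.45 without N5 to 0.55 without N7). Over all libraries left out in turn, the change ranged from 0.34 to 0.59. In NRK-49F the change was -0.36 (SE 0.15, adjusted p = 0.0663, exact permutation p = 0.0857), and the difference between the lines was 0.85 (SE 0.21, adjusted p = 0.00275). Without N3 that difference lost its call, at 0.76, and likewise with library totals, at 0.61. NRK-52E was above NRK-49F at both pH values (1.33 and 2.18 on the log2 scale).

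Of 5 further genes of heme turnover, 2 were called higher and 3 were not called in NRK-52E by edgeR and DESeq2 together, and 1 was called higher and 4 were not in NRK-49F (medians 0.25 and 0.13), beside 28.2% and 18.4% of all genes called higher. Fech, which inserts iron into protoporphyrin, had a log2 change of 0.89 (adjusted p = 1.73e-05) in NRK-52E. Hmox2, the constitutive heme oxygenase, rose by 0.83 in the same cells (adjusted p = 3.33e-05). Neither passed in NRK-49F (Fech -0.080, Hmox2 -0.36), and the effects differed by 0.95 for Fech and 1.18 for Hmox2 (adjusted p = 6.97e-06 and 8.35e-06). In NRK-49F the gene called was Cpox, an earlier step of heme synthesis (0.85, adjusted p = 6.16e-05), which did not pass in NRK-52E (0.19), and the effects differed by -0.68 (adjusted p = 0.000324). Hmox1, the inducible heme oxygenase that makes biliverdin and a classical Nrf2 target, was named after its values were seen. It was low and did not pass the test, at 3.97 ± 0.645 and 4.11 ± 1.02 FPM in NRK-52E and 12 ± 0.941 and 15.3 ± 4.65 FPM in NRK-49F (pH 7.4 and pH 6.0).

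Aox1 (ENSRNOG00000015354, chromosome 9) encodes a molybdenum aldehyde oxidase and set the cell lines further apart than any other of the 10. In NRK-52E it stood at 8.71, 8.56, 10.7 and 9.09 FPM at pH 7.4 and at 7.22, 5.84, 5.21 and 5.97 FPM at pH 6.0. In NRK-49F it stood at 437, 421, 365 and 404 FPM at pH 7.4 and at 321, 338, 432 and 524 FPM at pH 6.0. The NRK-52E groups were apart, and in NRK-49F the acidosis libraries lay on both sides of the control libraries, with N11 and N12 low and N16 high. The difference between NRK-52E and NRK-49F was -5.45 at pH 7.4 (SE 0.17, adjusted p = 1.78e-15) and -6.08 at pH 6.0 (SE 0.17, adjusted p = 6.08e-16), both on the log2 scale. With acidosis Aox1 fell by 0.64 in NRK-52E (SE 0.17, adjusted p = 0.00576), a call that was lost in 7 of 19 alternatives, namely within either header number (-0.45 and -0.85) and without N2, N4, N5, N6 or N7 (from -0.68 without N2 to -0.56 without N7). In NRK-49F the change was -0.027 (SE 0.14, adjusted p = 0.885), made up of -0.38 within header number 20, which was called, and 0.29 within header number 21, which was not. The 2 pH effects differed by -0.63 (SE 0.21, adjusted p = 0.0163), which missed the threshold but passed with library totals (-0.87) and without N3 (-0.83), N11 (-0.73) or N12 (-0.71). Of the other aldehyde oxidase genes, Aox2 had the highest group mean, 1.70 ± 0.453 FPM in NRK-49F at pH 6.0 (highest library 2.35), and fragments shared with Aox1 would count for each. Xdh, the related xanthine dehydrogenase, fell from 574 ± 21.4 to 123 ± 23.2 FPM in NRK-52E (log2 -2.24, adjusted p = 2.99e-07) and did not pass in NRK-49F (-0.22, adjusted p = 0.0404, with a difference -2.04 between the effects, adjusted p = 1.09e-08).

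Ugdh (ENSRNOG00000002643, chromosome 14) makes UDP-glucuronate, the sugar donor of glucuronidation and of glycosaminoglycans. In NRK-52E it stood at 51.4, 54.7, 55.3 and 51.4 FPM at pH 7.4 and at 34.4, 30.6, 34.0 and 38.0 FPM at pH 6.0. In NRK-49F it stood at 136, 133, 129.7 and 114 FPM at pH 7.4 and at 236, 237, 278 and 305 FPM at pH 6.0. The groups were apart in both lines and in opposite order. Ugdh fell by 0.65 on the log2 scale in NRK-52E (SE 0.10, adjusted p = 0.000196), with -0.75 and -0.59 within header numbers 21 and 22, the latter not called. In NRK-49F it rose 2.06-fold (log2 1.03, SE 0.11, adjusted p = 9.22e-06). The 2 effects differed by -1.70 (SE 0.14, adjusted p = 3.74e-08). The order of the groups was complete, from 34.2 ± 3.02 FPM in NRK-52E at pH 6.0 through 53.2 ± 2.1 and 128 ± 9.83 to 264 ± 33.9 in NRK-49F at pH 6.0.

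Among 5 genes listed around UDP-glucuronate and its precursor UDP-glucose, 1 was called higher and 1 lower in each line (median log2 fold change 0.12 in NRK-52E, 0.086 in NRK-49F). Of all genes 28.2% and 28.5% were called higher and lower in NRK-52E, and 18.4% and 19.4% in NRK-49F. In NRK-52E the transporter Slc35d1 rose (0.96 on the log2 scale, adjusted p = 0.000143), and Gusb, the lysosomal glucuronidase, fell from 176 ± 3.84 to 54.8 ± 8.40 FPM (log2 -1.70, adjusted p = 5.68e-07). In NRK-49F Uxs1, which turns UDP-glucuronate into UDP-xylose, rose (0.62, adjusted p = 0.000390), while the glucosyltransferase gene Ugcg was slightly lower (-0.40, adjusted p = 0.00836), a call lost in 9 of 19 alternatives, among them without N9, N10, N12, N13, N15 or N16 (from -0.40 to -0.34). In the respective other line none of these 4 passed (Slc35d1 0.37, Gusb 0.086, Uxs1 0.25, Ugcg 0.12). The effects differed for Gusb (-1.80, adjusted p = 3.67e-07) and, just inside the threshold and lost in 16 of 22 alternatives, for Ugcg (0.51), and the difference did not pass for Slc35d1 (0.58) or Uxs1 (-0.39). Ugt1a6, a phenol glucuronosyltransferase that uses the product of Ugdh, followed its direction in each line, with 428 ± 18.9 and 232 ± 50.2 FPM in NRK-52E and 205 ± 44.6 and 481 ± 115 FPM in NRK-49F at pH 7.4 and pH 6.0. Its log2 changes were -0.90 (adjusted p = 0.000215) and 1.21 (adjusted p = 0.000204), and they differed by -2.13 (adjusted p = 2.06e-06). Ugt1a6 shares exons with other genes of its locus, so its count is uncertain.

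Across the 10 genes the pH effect was more positive in NRK-52E for 6 (Ephx1, Cbr1, Cbr3, Blvra, Blvrb and Osgin1) at an FDR below 0.01 in 1 edgeR model of all 16 libraries, beside 19.4% of 14679 genes tested. It was more negative for 1 (Ugdh) beside 17.6%, and 3 (Nqo1, Ephx2 and Aox1) did not pass. The median difference was 0.76 for the 10 and -0.014 for all genes. At pH 7.4, 2 of the 10 (Ephx2 and Blvra) were higher in NRK-52E beside 28.0% of all genes, and 7 (Nqo1, Cbr1, Cbr3, Blvrb, Aox1, Osgin1 and Ugdh) were lower beside 33.7%. Of these, the Cbr1 difference (-0.52) lost its call with library totals (-0.13) and without N2 (-0.46), N3 (-0.39) or N5 (-0.46). At pH 6.0, 4 (Ephx1, Blvra, Blvrb and Osgin1) were higher in NRK-52E beside 30.7%, and 4 (Nqo1, Cbr3, Aox1 and Ugdh) were lower beside 33.8%. Ephx2 (0.54, adjusted p = 0.0105) passed there only under 7 alternatives, among them library totals (0.69) and the removal of N3 (0.65) or N11 (0.61). The median difference between NRK-52E and NRK-49F for the 10 was -1.37 at pH 7.4 and 0.32 at pH 6.0, against -0.054 and -0.023 for all genes. These comparisons share libraries with the pH comparisons, so they are set side by side only. By RMS difference of centred log2(FPM + 1) over the 16 libraries, the closest pair of the 10 was Blvrb and Cbr1, at 0.77, and the farthest was Ephx1 and Aox1, at 4.30.

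The regulators of the pathway were a list of 12. Of these, 5 were called higher and 7 were not called in NRK-52E by edgeR and DESeq2 together (median log2 fold change 0.44), beside 28.2% of all genes called higher and 28.5% lower. In NRK-49F 4 of 11 tested were called higher and 2 lower (median 0.027), beside 18.4% and 19.4%. Nfe2l2 itself had 145 ± 7.37 and 277 ± 40.3 FPM in NRK-52E at pH 7.4 and 6.0, and 392 ± 35.2 and 308 ± 20.5 FPM in NRK-49F. It rose by 0.91 in NRK-52E (adjusted p = 2.43e-05) and fell by 0.37 in NRK-49F (adjusted p = 0.00754), the latter a call lost in 10 of 19 alternatives, among them library totals (-0.32) and the removal of N9, N10, N11, N12, N13, N15 or N16 (from -0.39 to -0.33). The effects on Nfe2l2 differed by 1.27 (adjusted p = 1.75e-06). Keap1 stood at 83.4 ± 5.87 and 87.4 ± 14.9 FPM in NRK-52E and 102 ± 5.99 and 105 ± 8.41 in NRK-49F, and did not pass the test in either line. Maff, a small Maf partner, rose in both lines, by 2.54 in NRK-52E (adjusted p = 3.15e-07) and by 0.97 in NRK-49F (adjusted p = 7.56e-05). Mafk had 0.94 in NRK-52E and -0.46 in NRK-49F, where the call was lost in 11 of 19 alternatives, among them without N9, N10, N12, N14, N15 or N16 (from -0.49 to -0.37). Between the lines the effects differed by 1.56 for Maff (adjusted p = 1.04e-05) and 1.39 for Mafk (adjusted p = 5.56e-05). Sqstm1, an autophagy receptor that binds Keap1, rose in NRK-52E from 399 ± 14.6 to 1346 ± 280.0 FPM and did not pass in NRK-49F (log2 0.067, adjusted p = 0.555, with a difference 1.66 between the effects, adjusted p = 4.13e-07). Bach1, a repressor of antioxidant response elements, rose in NRK-49F from 26.5 ± 8.74 to 68.1 ± 5.46 FPM (log2 1.34, adjusted p = 0.000160). Mafg also rose there (0.93), a call lost in 2 of 19 alternatives. In NRK-52E neither passed (Bach1 0.43, adjusted p = 0.237; Mafg 1.10, adjusted p = 0.0150), and the differences between the lines did not pass either.

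Other Nrf2 targets, a list of 24, were called higher in 14 of 21 tested and lower in 1 in NRK-52E (median log2 fold change 1.21), beside 28.2% and 28.5% of all genes. In NRK-49F they were called higher in 15 of 22 and lower in 1 (median 1.17), beside 18.4% and 19.4%. Gclm, the modifier subunit of glutathione synthesis, rose in NRK-52E by 3.0, and the NRK-49F value was 2.06. Ftl1, the ferritin light chain, rose by 3.09 in NRK-52E and 0.96 in the fibroblasts, and Txnrd1, a thioredoxin reductase, by 2.40 and 1.59. Tkt, a transketolase of the pentose phosphate pathway, rose by 1.91 in NRK-52E and 2.57 in the fibroblasts. Between the lines the effects differed by 0.93 for Gclm (adjusted p = 0.000728) and 2.12 for Ftl1 (adjusted p = 8.08e-06). For Txnrd1 the difference was 0.79 (adjusted p = 0.00247), a call lost in 2 of 22 alternatives, and for Tkt it was -0.67 (adjusted p = 0.00185). Gstm1, a glutathione transferase with close paralogs, rose in NRK-49F by 2.27 and did not pass in NRK-52E (0.13, adjusted p = 0.402), and the effects differed by -2.16 (adjusted p = 9.27e-08). The gene lower in NRK-52E was Aldh3a1, an aldehyde dehydrogenase, which went from 40.1 ± 4.53 to 1.60 ± 0.446 FPM (-4.68, adjusted p = 6.65e-08). In NRK-49F, where it stood at 4548 ± 368 and 5897 ± 1440.0 FPM, it was not called, and the pH effects differed by -5.06 (adjusted p = 2.62e-10). The low gene in NRK-49F was Mgst1, a microsomal glutathione transferase (-0.74, adjusted p = 0.00347), whose call was lost within header number 21 (-0.54) and without N12 (-0.69) or N15 (-0.75).

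Other phase I and II enzymes were a list of 26, of which the test covered 16 (NRK-52E) and 12 (NRK-49F). In NRK-52E 2 were called higher, 7 lower and 7 were not called (median -0.72), beside 28.2% and 28.5% of all genes. In NRK-49F 2 were called higher, 3 lower and 7 were not called (median -0.23), beside 18.4% and 19.4% of all genes. Por, the electron donor of microsomal cytochromes P450, rose in NRK-52E from 133 ± 8.64 to 399 ± 26.1 FPM and did not pass in NRK-49F (log2 -0.23, adjusted p = 0.0544, with a difference 1.79 between the effects, adjusted p = 1.01e-08). Sult1a1, a phenol sulfotransferase, fell in both lines (-2.48 and -2.16), from low levels of 4.77 FPM in NRK-52E and 0.769 FPM in NRK-49F. Cyp1b1 fell in NRK-52E from 11.2 ± 0.738 to 2.59 ± 0.703 FPM and was higher in NRK-49F at pH 6.0 (406 ± 17.1 and 622 ± 160.3 FPM, log2 0.60), with a difference of -2.73 between the effects (adjusted p = 6.29e-08). Cyb5r3, the reductase of cytochrome b5, fell by 1.37 in NRK-49F and did not pass in NRK-52E (-0.54, adjusted p = 0.0150, with a difference 0.82 between the effects, adjusted p = 0.00174). Nat1, an acetyltransferase, did not pass in NRK-52E either (-1.05, adjusted p = 0.0111, with a difference -0.45 between the effects, adjusted p = 0.310) and fell by 0.62 in NRK-49F, the latter a call lost in 9 of 19 alternatives, among them without N9, N10, N11, N12, N14 or N15 (from -0.67 to -0.51). Also lost were the NRK-49F calls of Cyp1b1 within header number 20 (0.25, against 0.90 within 21) and without N9, N10, N14 or N15 (0.61, 0.62, 0.58 and 0.59) and of Sult1a1 within either header number (-1.93 and -2.32) and without N10 or N15 (-2.07 and -1.92).

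The genes with the nearest profiles were sought among 9753 genes with a mean of at least 10 FPM, by the RMS difference of centred log2(FPM + 1) over the 16 libraries. For Nqo1 they were Tnfrsf26 (0.47), Pgm1 (0.47) and Steap3 (0.49). All 3 were again nearest with scaling by library totals, but in only 5 of 16 repeats that left out 1 library, with at least 1 of them kept in each. For Ephx1 they were Wfikkn1 (0.48), Csdc2 (0.55) and Ctsk (0.58), the same 3 in all 16 repeats and with library totals.

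Since antioxidant response elements are where Nrf2 binds, the promoters of the 10 genes were searched for the core motif TGACNNNGC on both strands. RefSeq windows of build GRCr8, with 250 bases before and 50 after the start, were matched by symbol for 9 of the 10 (10 windows, with 2 starts for Ephx1), and Ephx2 had none. The counts themselves refer to rn6, with which these coordinates are not interchangeable. The motif was present in 12.1% of 33469 windows of the same length. It was present in a window of 3 of the 9 genes that had a window, a count per gene and not per window. These are shown on the strand of the gene, 5′ to 3′, with the motif in capitals, which in each case reads on the opposite strand. For Ephx1 (chr13:95263136-95263204, minus strand) it reads TGACTCAGC on that opposite strand and belongs to 1 of its 2 windows. The other stretches lie at chr3:134802735-134802803 (Blvra, plus strand) and chr14:43202281-43202349 (Ugdh, plus strand).
Ephx1: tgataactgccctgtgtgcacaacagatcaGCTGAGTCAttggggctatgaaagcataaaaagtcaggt
Blvra: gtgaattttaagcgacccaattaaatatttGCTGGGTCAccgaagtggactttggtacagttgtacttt
Ugdh: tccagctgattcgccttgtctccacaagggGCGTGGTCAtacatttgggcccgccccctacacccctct
Of the 6 genes called higher in NRK-52E, 2 had a match (Ephx1 and Blvra) and 4 had none (Nqo1, Cbr3, Blvrb and Osgin1). A match describes letters only, and these windows do not cover elements farther away.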

How the data were processed

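RNA-seq counts per gene from 16 libraries of NRK-52E and NRK-49F cells were used as deposited. The authors' methods text names tophat2 for mapping, and the processing notes list HISAT2 2.1.0 and featureCounts on rn6, so the mapper is uncertain. Fragments that map to more than 1 place were counted, and the strand setting is not named. The table held 32623 genes, 22082 of them with a count, and library totals of 16201084 to 34784862.

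Analyses used R 4.3.3, edgeR 4.0.16 and DESeq2 1.42.0. Genes that passed filterByExpr of edgeR in the libraries of a comparison were the genes tested. DESeq2 was run on all genes with a count and with its own filter, so its adjusted p-values refer to a different set of genes. FPM were computed by edgeR with TMM factors over all 16 libraries. The pH effect in each line was tested in its 8 libraries by edgeR (quasi-likelihood) and DESeq2, and both had to give a Benjamini-Hochberg FDR below 0.01. The difference of the pH effects and the line differences came from 1 edgeR model of 4 groups at the same FDR. That model took all 16 libraries as independent. Nothing in the labels says which insert and well shared a medium, so any pairing of the lines was ignored. For the SE, the size of each log2 change was divided by the root of its F statistic. Exact permutation tests used log2(FPM + 1). The procedure was tested on simulated data. That simulation covered the pH effect within each line only, and not the difference of the pH effects or the line differences.

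Members and related lists (Nrf2 regulators, other Nrf2 targets, other phase I and II enzymes, UDP-glucuronate, heme, fatty acid epoxides, carbonyl and quinone reductases, cell type markers) were chosen by symbol with earlier results of these data known. All members, Nfe2l2 and Keap1 are named, with up to 3 genes of each list with the largest rise and 3 with the largest fall among its called genes in each line, and the 3 genes with a mean of at least 10 FPM whose profile over the 16 libraries was nearest to Nqo1 or Ephx1. Alternatives were DESeq2 size factors, library totals, no filter on low counts, at least 1 CPM in 4 libraries, DESeq2 or edgeR alone, an FDR of 0.05, all 16 libraries in 1 fit, the header number as a covariate, each header number alone and leaving out each library. Promoters were RefSeq windows of build GRCr8, matched by symbol.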

Additional observations from a re-analysis of the deposited data

Results flagged for a closer look

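The pH effect differed between NRK-52E and NRK-49F, by edgeR at an FDR below 0.01 over all genes, for 7 of the 10 genes, beside 19.4% of 14679 genes with a more positive and 17.6% with a more negative effect in NRK-52E. The log2 differences were 4.86 for Ephx1, 3.92 for Osgin1, 1.96 for Blvrb, 1.55 for Cbr3, 0.85 for Blvra, 0.66 for Cbr1 and -1.70 for Ugdh. The Cbr1 call was lost in 14 of 22 alternatives, and the Blvra call in 2. In 1 of 40 sets of 4 libraries (each gene in each group) a single library lay far from the rest, where about 2 such sets are expected by chance. It was N1 for Ephx1 in NRK-52E at pH 7.4, at 33.7 FPM, with the others from 28.2 to 28.8 FPM.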

How the results depend on the processing

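For the 10 genes, 171 of 190 values under alternatives kept the direction and side of the threshold for the pH effect in NRK-52E, 168 of 190 in NRK-49F, 193 of 220 for the difference of the pH effects, 212 of 220 for the line difference at pH 7.4 and 213 of 220 at pH 6.0. The calls of Nqo1, Ephx1, Cbr3, Blvrb and Osgin1 in NRK-52E and of Nqo1, Osgin1 and Ugdh in NRK-49F held in all 19 alternatives. Among genes of the related lists, the calls of Mafk, Slc35d1 and Cbr4 in NRK-52E and of Akr1b1 in NRK-49F were lost in 1 of 19 each. The difference of the pH effects on Cyb5r3 lost its call in 1 of 22. With library totals as the scaling, the all-gene median (log2) was -0.21 in NRK-52E, 0.040 in NRK-49F and -0.25 for the difference of the pH effects, and 0.34 and 0.13 for the line differences at pH 7.4 and 6.0. Of all genes, that scaling called 21.1% higher and 30.8% lower in NRK-52E, and 19.8% and 17.6% in NRK-49F.

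Header number 22 alone (2 against 2 libraries) gave 2820 genes called in NRK-52E in place of 7793, and 0 of the 10 lower. Header number 21 alone gave 1980 in NRK-49F in place of 5039, and 0 of the 10 lower. In NRK-49F the number of the 10 called lower, 1 in the report, was 2 with DESeq2 alone, all 16 libraries in 1 fit or header number 20 alone, and 3 at an FDR below 0.05. The number with a more negative effect in NRK-52E, 1 in the report, was 3 at an FDR below 0.05, with library totals or with DESeq2, and 1 to 2 with each library left out, 2 without N3, N8, N11 or N12.

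Near 0, directions turned. In NRK-49F Cbr3 was at 0.023 with library totals, 0.15 within header number 20 and -0.093 to 0.056 with each library left out. Aox1 there was at 0.014 with library totals, 0.29 within header number 21 and -0.17 to 0.070 with each library left out. The line difference of Ephx1 at pH 7.4 was 0.034 with DESeq2 size factors, 0.33 with library totals, 0.035 in DESeq2 and -0.12 to 0.072 with each library left out. Keap1 in NRK-52E was at -0.15 with library totals, -0.17 within header number 21 and -0.036 to 0.16 with each library left out, and in NRK-49F at -0.018 to 0.058 with each library left out. The causes were not tested.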
